A study of Mus musculus with 4 samples.

Results

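Semaphorins are a family of guidance ligands, and plexins and neuropilins are their receptors. The genes described here are those on a mouse Affymetrix array whose symbol is a semaphorin of class 3 to 7 (Sema3a to Sema7a), a plexin of the A, B, C or D type, or a neuropilin (Nrp1, Nrp2). The array carried 31 of them among 18193 named genes: 20 ligands and 11 receptors, the latter made up of 9 plexins and 2 neuropilins. Each gene was read by its brightest probe set, judged by the mean over the 4 arrays. A gene was called measured when its highest array reached 5.69, the median of all log2 signals, which held for 26 of the 31 genes (15 ligands and all 11 receptors) and for 11600 genes in all. The filter was passed on all 4 arrays by 22 of them. Plxnc1 and Sema4f passed it on 2 arrays, and Sema3b and Sema4d on 1.

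The cells were mouse DFAT cells, de-differentiated fat cells: mature fat cells that have lost their lipid in culture and become fibroblast-like. They were grown in DMEM with 10% fetal bovine serum, and there were 4 groups of 1 array each. The first group received the solvent DMSO and the second Y-27632, an inhibitor of the ROCK kinases that act downstream of the GTPase RhoA to drive actomyosin contraction. The third was transfected with a control siRNA and the fourth with an siRNA against Mkl1, a coactivator of the transcription factor SRF that is released when actin polymerises. The study asked how expression differed after each treatment. The labels give no dose, duration, siRNA sequence, mouse strain or age, and do not say whether the arrays came from separate cultures. With 1 array per group no difference has a replicate check, no test was possible, and the array number sets the precision. All values below are log2 RMA signals, and a difference of 1 is a 2-fold ratio.

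Semaphorins of class 3 are secreted, those of classes 4, 5 and 6 span the membrane, and Sema7a is held at the cell surface by a GPI anchor. Most class 3 ligands bind a neuropilin, which has no signalling domain of its own and works together with a plexin. The other classes mostly bind plexins directly. Plexins carry a GTPase-activating domain for small Ras-family GTPases such as Rap, and B-type plexins also bind exchange factors that activate RhoA and, through it, ROCK. The family is best known for steering axons and blood vessels by collapsing the actin cytoskeleton at the edge of the cell, and it is also expressed by connective tissue and fat cells.

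The transcript targeted by the siRNA, Mkl1 (present symbol Mrtfa, 1 probe set), read 8.55 after control siRNA and 7.70 after Mkl1 siRNA, a ratio of 0.554. All 10 mature fat cell markers were measured, and all 10 stood above the control in both treatments, with median differences of 2.89 after Y-27632, 2.43 after Mkl1 siRNA and -0.08 between the control arrays. The log2 of their summed signal was 14.6 with DMSO, 15.8 with Y-27632, 14.6 with control siRNA and 15.8 with Mkl1 siRNA. All 8 stromal fibroblast markers were measured, with a log2 summed signal between 16.2 and 16.6 on the 4 arrays. Of the markers of other cell types, 2 of 8 endothelial, 2 of 8 macrophage or leukocyte and 4 of 8 neural or Schwann cell markers were measured. The measured ones were Kdr and Esam, Csf1r and Cd14, and Sox10, S100b, Tubb3 and Ncam1. Among these, Cd14 ran from 7.28 to 7.98 over the arrays and Ncam1 from 8.87 to 9.78. The endothelial genes Pecam1 and Cdh5 stayed under the filter on every array, as did the leukocyte gene Ptprc, which encodes CD45. The log2 summed signals of the lists over the 4 arrays ran from 7.86 to 8.06 for endothelial, 8.46 to 8.82 for macrophage or leukocyte and 9.62 to 10.3 for neural markers. In RNA from a whole culture, fewer cells of one type and less RNA per cell cannot be told apart.

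Among the 26 measured members, few stood apart from their control. With Y-27632, 2 ligands, Sema7a and Sema6d, were at least 2-fold above DMSO, and no member was at least 2-fold below it. The same held for 1.27% of all measured genes on the higher side and 0.224% on the lower. With Mkl1 siRNA, the receptor Plxnd1 was at least 2-fold above control siRNA and Sema7a at least 2-fold below it, against 1.79% and 1.74% of all measured genes. Between the control arrays, Sema3c and Nrp2 were at least 2-fold higher with control siRNA than with DMSO, and Plxnc1 and Sema5a at least 2-fold lower, against 0.957% and 1.09% of all measured genes. That last comparison sets the solvent array against the transfection control array. With 1 array of each, transfection cannot be told apart from differences between cultures or arrays. The comparison of the controls also shares 1 array with each treatment comparison.

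The lower threshold of 1.5-fold added no member in the treatment comparisons, with 2 higher and 0 lower after Y-27632 (3% and 1.33% of all measured genes) and 1 higher and 1 lower after Mkl1 siRNA (5.42% and 5.91%). Between the controls it gave 4 higher members, now including Sema6d and Sema7a, and 3 lower ones, now including Plxna1 (3.42% and 4.09%). Set against the other control array, Y-27632 had 2 members at least 2-fold higher, Plxnc1 and Sema5a, and 1 lower, Sema3c (2.03% and 0.75% of all measured genes). Mkl1 siRNA had 4 members at least 2-fold above DMSO, Sema3c, Sema6d, Nrp2 and Plxnd1, and 2 below it, Sema5a and Plxnc1 (2.73% and 3.23%). Plxnd1 with Mkl1 siRNA was thus the single 2-fold treatment difference of these genes that held against either control array.

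**Figure D1:**
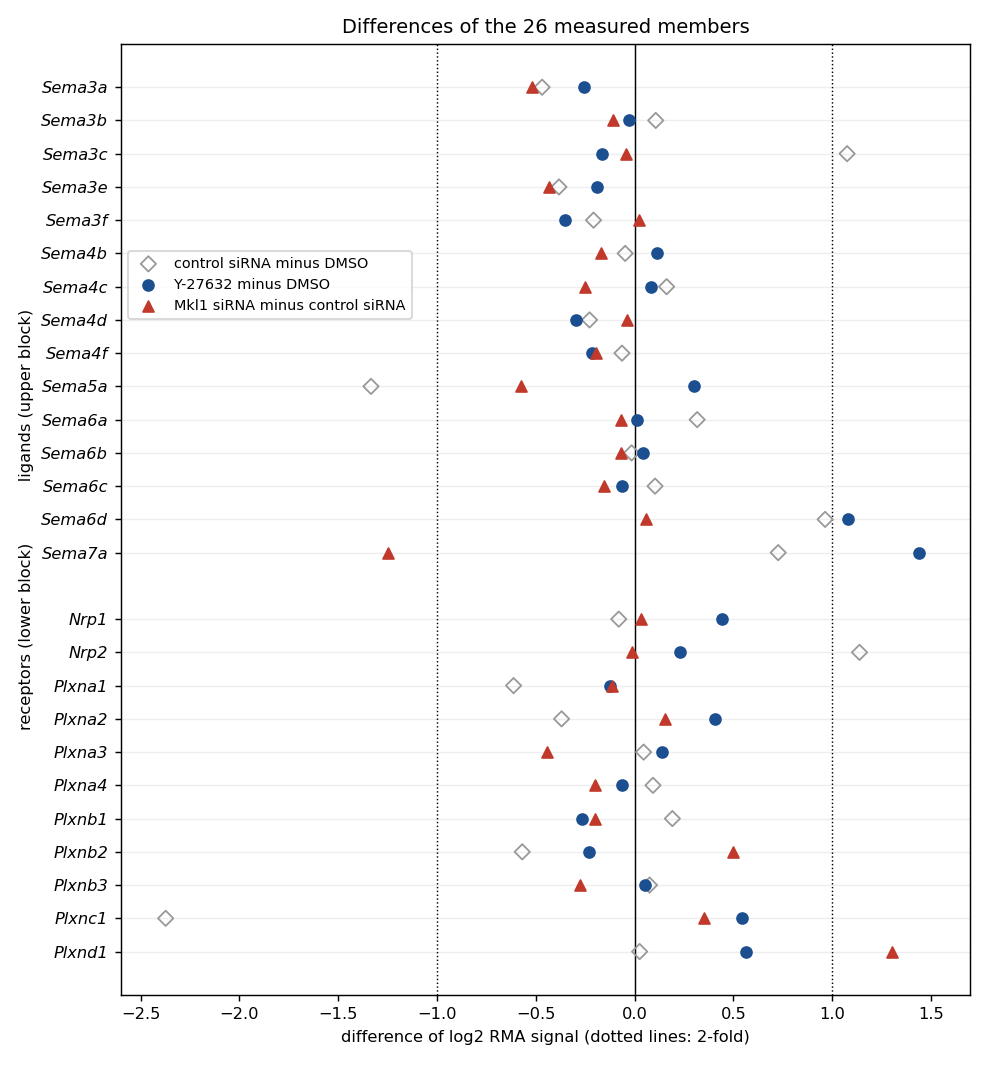
Difference of log2 RMA signal for the 26 measured members (15 ligands above, 11 receptors below), with Y-27632 minus DMSO as blue circles, Mkl1 siRNA minus control siRNA as red triangles and control siRNA minus DMSO as open diamonds; dotted lines mark 2-fold. Sema7a is at least 2-fold away from its control in opposite directions, at 1.44 and -1.25, and Plxnc1 lies furthest out, at -2.37 between the control arrays.

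Ligands and receptors were also compared as groups. The median ligand differed by -0.03 after Y-27632 and by -0.15 after Mkl1 siRNA, and the median measured gene by 0.00 in both. With Mkl1 siRNA, 13 of 15 measured ligands were below control siRNA, whereas 49.8% of all measured genes were. Among these ligands, Sema3b passed the filter only with control siRNA, so the filter itself fixed its direction here. Sema4f passed it only with DMSO and control siRNA, which fixed its direction too, and both Sema4d signals in this comparison were under the filter. In the same comparison 7 of the 8 stromal fibroblast markers were below control siRNA, with a median of -0.32 and a range from -1.05 for the collagen gene Col1a1 to 0.60 for Dcn; their part in the ligand count was not tested. The receptors had medians of 0.14 and -0.01, with 7 of 11 above DMSO and 5 of 11 above control siRNA, against 50.4% and 50.1% of all measured genes. Over the 4 arrays, the highest and lowest signals were at least 2-fold apart for 4 of 15 ligands, 3 of 11 receptors and 8.74% of all measured genes. These counts describe the genes on these arrays and were not tested.

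**Figure D2:**
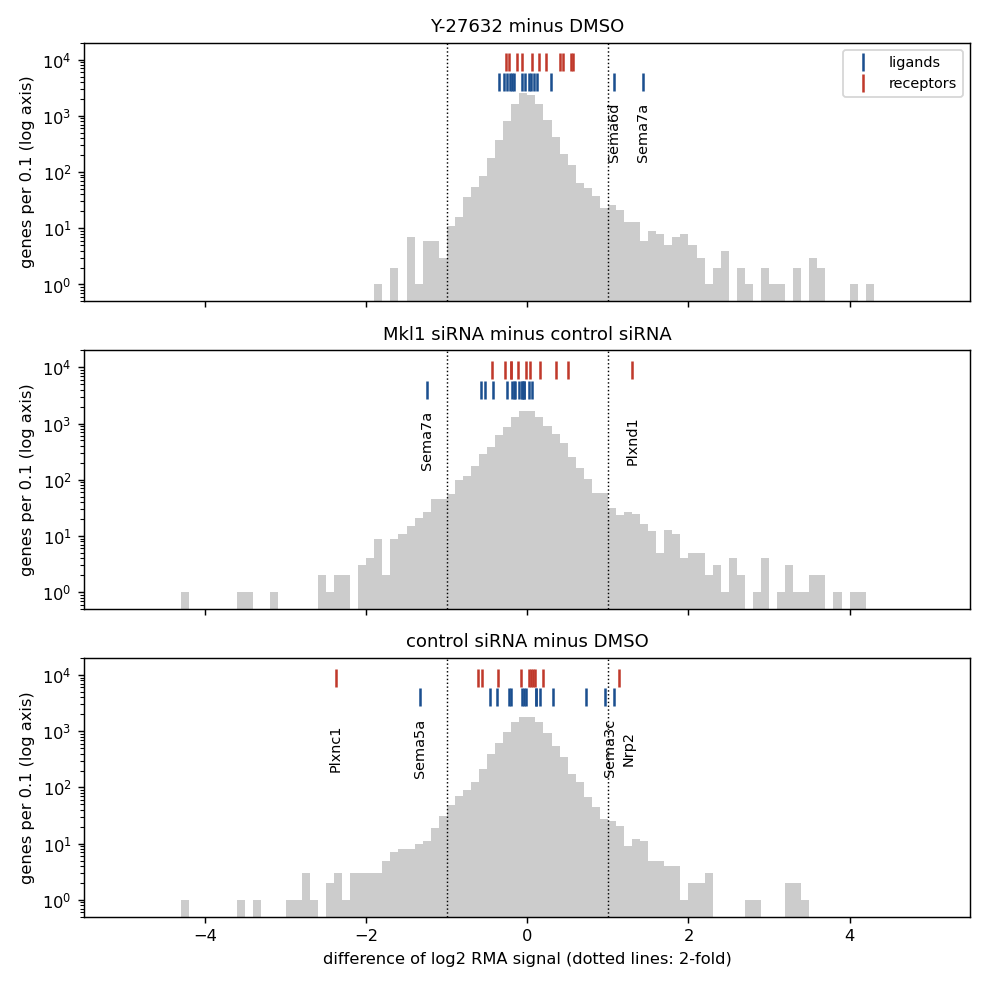
Histograms of the difference of log2 RMA signal over all 11600 measured genes (bars, genes per 0.1, log axis) in the 3 comparisons, with ticks for the 15 ligands in blue and the 11 receptors in red; dotted lines mark 2-fold. Most ticks lie within the bulk of the genes, and the named ones are those at least 2-fold from 0: 2 with Y-27632, 2 with Mkl1 siRNA and 4 between the control arrays.

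The promoters of 3 members with a large difference in 1 or more comparisons are shown for their sequence context. Sema7a and Plxnc1 are a ligand and its receptor, and Plxnd1 is the member furthest above its control with Mkl1 siRNA. Each line gives the 250 bases before the transcription start, 5′ to 3′ on the strand of the gene, from RefSeq on build GRCm38.p6. Capitals mark GGGCGG, the GC box bound by Sp-type factors, and GGAATG, the core bound by the TEAD partners of YAP and TAZ, each read on both strands. No 2 matches overlap in these sequences.
Sema7a promoter, chr9:57939862-57940111, plus strand: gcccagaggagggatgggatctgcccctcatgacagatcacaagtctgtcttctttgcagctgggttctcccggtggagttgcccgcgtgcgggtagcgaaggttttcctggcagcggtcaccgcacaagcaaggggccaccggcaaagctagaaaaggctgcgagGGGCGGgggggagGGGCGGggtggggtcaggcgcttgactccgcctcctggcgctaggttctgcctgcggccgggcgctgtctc
Plxnc1 promoter, chr10:94944846-94945095, minus strand: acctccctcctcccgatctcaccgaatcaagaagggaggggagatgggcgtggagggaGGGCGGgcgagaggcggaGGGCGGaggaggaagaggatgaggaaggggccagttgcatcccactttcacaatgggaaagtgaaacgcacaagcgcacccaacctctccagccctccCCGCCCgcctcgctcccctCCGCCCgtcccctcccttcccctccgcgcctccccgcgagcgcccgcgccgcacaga
Plxnd1 promoter, chr6:115995006-115995255, minus strand: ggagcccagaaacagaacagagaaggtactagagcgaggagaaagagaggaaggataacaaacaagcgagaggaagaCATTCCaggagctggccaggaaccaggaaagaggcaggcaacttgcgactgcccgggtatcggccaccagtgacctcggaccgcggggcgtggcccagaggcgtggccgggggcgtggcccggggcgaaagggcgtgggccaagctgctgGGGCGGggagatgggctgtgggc
The Sema7a promoter holds 2 GC boxes, that of Plxnc1 holds 4, and that of Plxnd1 holds 1 GC box and 1 GGAATG match, which begins 173 bases before the start. None of the 3 windows holds the SRF element known as the CArG box.

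RefSeq promoters were found for 26 of the 31 members, 8 of which had several starts, giving 37 windows; Plxna1, Plxna4, Sema3b, Sema3f and Sema6a had none in the table. The GC box stood in 27 of the 37 windows (73%) and in 32.7% of all 32851 promoter windows of this length. GGAATG stood in 3 of 37 (8.11%) and in 12.6% of all. A CArG box stood in 1 window, of Sema4d, and in 1.47% of all. The median GC content was 64% in the 37 windows and 52.4% in all. The richest in GC were Sema3c at 78.4% and Plxnb1 at 75.2%, and the poorest was Sema3a at 40.8%. Several windows belong to 1 gene, and a match is a match of letters only.

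Sema7a, the GPI-anchored ligand that signals through Plxnc1 and through beta-1 integrin, had signals of 8.58 with DMSO, 10.02 with Y-27632, 9.31 with control siRNA and 8.06 with Mkl1 siRNA. It was thus highest after ROCK inhibition and lowest after Mkl1 knockdown. The difference was 1.44 with Y-27632, a ratio of 2.71 and rank 73 from the top of 11600 genes. With Mkl1 siRNA it was -1.25, a ratio of 0.421 and rank 99 from the bottom. The treatments therefore stood on opposite sides of their controls by at least 2-fold. The control arrays themselves differed by 0.73, so that Y-27632 was above control siRNA by 0.71 and Mkl1 siRNA below DMSO by -0.52, both short of 2-fold. A second Sema7a probe set, which never reached the filter, had the same order of arrays, at 4.25 with DMSO, 5.03 with Y-27632, 4.86 with control siRNA and 3.94 with Mkl1 siRNA. The fat cell markers, by contrast, were above their control in both treatments, and their part in the Sema7a differences was not tested.

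**Figure D3:**
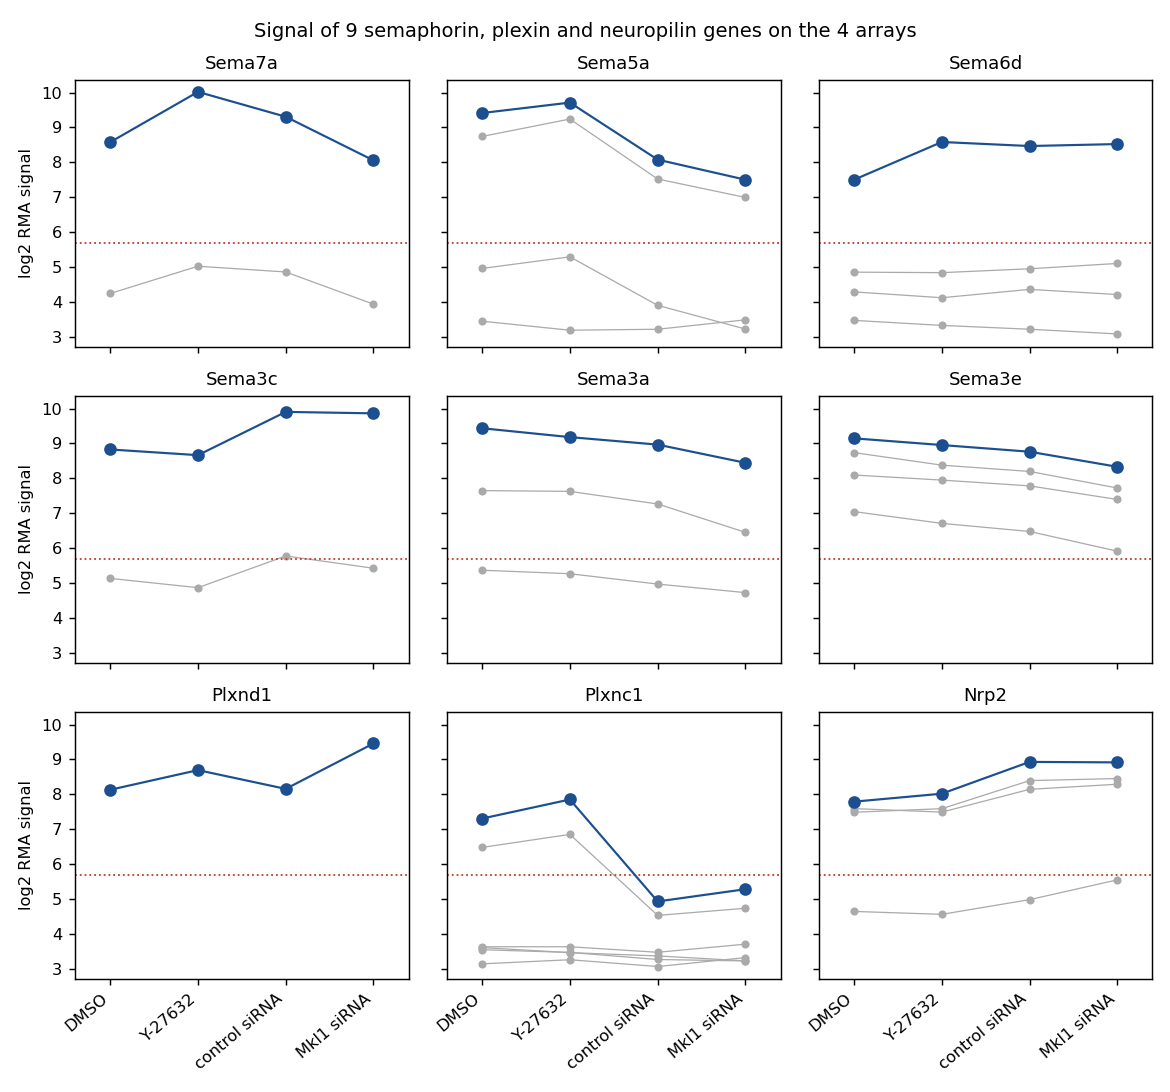
log2 RMA signal of 9 members on the 4 arrays, 1 array per group; blue points are the probe set read for the gene, grey points its other probe sets, lines only join the values of 1 probe set, and the red dotted line is the filter at 5.69. Sema7a peaks with Y-27632, Plxnd1 with Mkl1 siRNA, and Sema5a and Plxnc1 are low on both siRNA arrays where Sema3c and Nrp2 are high.

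Sema6d, a membrane-spanning ligand of A-type plexins known from heart development, had signals of 7.50 with DMSO, 8.58 with Y-27632, 8.47 with control siRNA and 8.53 with Mkl1 siRNA. Only the DMSO array stood apart, and the other 3 lay within 0.12 of each other. The difference of 1.08 with Y-27632 (ratio 2.11) therefore had a counterpart of 0.96 between the control arrays, and Y-27632 exceeded control siRNA by 0.12. With Mkl1 siRNA the difference was 0.06. The other 3 Sema6d probe sets stayed under the filter and differed by -0.17, -0.14 and -0.01 with Y-27632. Sema6a, Sema6b and Sema6c, the other members of the class, differed by 0.01, 0.04 and -0.06 with Y-27632 and by -0.07, -0.07 and -0.15 with Mkl1 siRNA.

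Sema5a, a ligand with thrombospondin repeats beside its semaphorin domain, had signals of 9.41 with DMSO, 9.71 with Y-27632, 8.08 with control siRNA and 7.51 with Mkl1 siRNA. Both siRNA arrays were thus far below both others, and the Mkl1 siRNA array was the lowest. The control arrays differed by -1.33, a ratio of 0.397 and rank 61 from the bottom. Within the treatments the differences were smaller, 0.30 with Y-27632 and -0.57 with Mkl1 siRNA. The second Sema5a probe set above the filter gave 0.50 and -0.53, and -1.22 between the controls. Against the other control array, Y-27632 was above control siRNA by 1.63 and Mkl1 siRNA below DMSO by -1.91. Sema5b did not reach the filter, with signals from 4.76 to 5.06.

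Of the secreted class 3 ligands, 5 of 7 were measured and all 5 were below DMSO with Y-27632, by -0.35 to -0.03, as were 49.4% of all measured genes. Among the 5, Sema3b was under the filter with both DMSO and Y-27632. Sema3a, the founding member of the family, which collapses growth cones through Nrp1, had signals of 9.44 with DMSO, 9.18 with Y-27632, 8.97 with control siRNA and 8.45 with Mkl1 siRNA. Sema3e, which binds Plxnd1 without a neuropilin, ran the same way at 9.15, 8.95, 8.76 and 8.33. Both were lower in each treatment than in its control, by -0.25 and -0.52 for Sema3a and by -0.19 and -0.43 for Sema3e, all short of 2-fold. Against control siRNA, the Y-27632 array was instead above, by 0.21 and 0.19. All 4 Sema3e probe sets were below the control in both treatments, from -0.36 to -0.15 with Y-27632 and from -0.56 to -0.39 with Mkl1 siRNA. Both Sema3a probe sets above the filter were too, from -0.25 to -0.02 and from -0.81 to -0.52. In the RefSeq gene table these genes lie on the same chromosome with 3 protein-coding genes between them, and Sema3d, which never reached the filter, is next to Sema3a.

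Sema3c, a ligand of Nrp1 and Nrp2 that guides vessel and neural crest growth, went the other way across the siRNA arrays, with signals of 8.83 with DMSO, 8.67 with Y-27632, 9.90 with control siRNA and 9.86 with Mkl1 siRNA. Both siRNA arrays were above both others. Its treatment differences were -0.16 for Y-27632 and -0.04 for Mkl1 siRNA, and the control arrays were 1.08 apart. Its second probe set above the filter gave -0.27, -0.35 and 0.64. Sema3f, which acts through Nrp2, was lower by -0.35 with Y-27632 (10.13 to 9.78) and differed by 0.02 with Mkl1 siRNA; its second probe set above the filter gave -0.30 and 0.03. Sema3b differed by -0.03 and -0.11. Sema3g, just under the filter with a highest signal of 5.67, was higher by 0.53 with Y-27632 and differed by -0.04 with Mkl1 siRNA.

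The class 4 ligands, which span the membrane, stayed close to their controls. Sema4b, Sema4c, Sema4d and Sema4f lay between -0.30 and 0.12 of DMSO with Y-27632 and between -0.25 and -0.04 of control siRNA with Mkl1 siRNA. Sema4d, the ligand of Plxnb1 that also acts on lymphocytes and bone cells, had its highest signal with DMSO, 5.84, and read 5.55 with Y-27632, 5.61 with control siRNA and 5.57 with Mkl1 siRNA. It passed the filter only with DMSO, so the filter fixed its place below DMSO on the other arrays. Sema4f passed the filter only with DMSO and control siRNA, so the filter fixed its direction in both treatments. Sema4c, a ligand of Plxnb2, ran from 6.74 with Mkl1 siRNA to 6.99 with control siRNA. Sema4a and Sema4g stayed under the filter, with highest signals of 5.14 and 5.63.

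Among the receptors, Plxnd1 stood out in the knockdown. Plexin-D1 is the receptor of Sema3e, best known from the endothelium of growing vessels. Its signals were 8.13 with DMSO, 8.69 with Y-27632, 8.16 with control siRNA and 9.46 with Mkl1 siRNA. The Mkl1 siRNA array was the highest and Y-27632 the second, with the controls 0.03 apart. The differences were 1.30 with Mkl1 siRNA (ratio 2.46, rank 125 from the top) and 0.56 with Y-27632 (ratio 1.48, rank 379). Against the other control array they were 1.33 and 0.54, so the choice of control array moved them little. Plxnd1 was read by a single probe set. The fat cell markers were above their control on the same 2 arrays, and their part in the Plxnd1 difference was not tested. The 8 endothelial markers differed by -0.63 (Tie1) to 0.65 (Tek) with Mkl1 siRNA, and the 2 measured ones, Kdr and Esam, by 0.19 and 0.06. Kdr passed the filter only with DMSO and Mkl1 siRNA, so the filter fixed its direction here. Pecam1 and Cdh5, under the filter on all 4 arrays, differed by 0.24 and 0.10.

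Plxnc1, the receptor of Sema7a and of viral semaphorins, had the widest spread of all 26 members. Its signals were 7.31 with DMSO, 7.85 with Y-27632, 4.93 with control siRNA and 5.28 with Mkl1 siRNA. Both siRNA arrays were under the filter and both others well above it. The control arrays differed by -2.37, a ratio of 0.193 and rank 13 from the bottom of 11600 genes, and the second Plxnc1 probe set above the filter gave -1.95. Within the treatments Plxnc1 was higher by 0.55 with Y-27632 and by 0.35 with Mkl1 siRNA, and the second probe set gave 0.37 and 0.21. The remaining 4 of its 6 probe sets never exceeded 3.71. With signals this low on the siRNA arrays, RMA compresses ratios, so the difference between the controls may be understated.

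Nrp2, the neuropilin that binds Sema3f, Sema3c and lymphatic growth factors, had signals of 7.79 with DMSO, 8.02 with Y-27632, 8.93 with control siRNA and 8.92 with Mkl1 siRNA. As for its ligand Sema3c, both siRNA arrays were above both others. The control arrays differed by 1.14 (ratio 2.20, rank 76 from the top), and the 3 Nrp2 probe sets above the filter gave 0.55 to 1.14. The treatments differed from their own controls by 0.23 and -0.01, so the 2-fold difference of Nrp2 lay between the DMSO and control siRNA arrays.

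Nrp1, the coreceptor of Sema3a and of VEGF, had signals of 11.54 with DMSO, 11.98 with Y-27632, 11.46 with control siRNA and 11.49 with Mkl1 siRNA. The Y-27632 array was the highest, by 0.44 over DMSO, and all 4 Nrp1 probe sets were above DMSO there, by 0.26 to 0.44. With Mkl1 siRNA, 3 of them differed by 0.01 to 0.14, while the fourth differed by 0.90, from 8.53 in the control to 9.43 in the knockdown. That probe set also stood above DMSO with control siRNA, by 0.68, where the probe set read for the gene differed by -0.08. Against control siRNA, the 4 probe sets ran from -0.42 to 0.52 with Y-27632, 3 of them above 0. The Nrp1 probe sets thus stood on the same side with Y-27632 against DMSO but not against control siRNA.

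The A-type plexins, partners of the neuropilins and receptors of class 6 ligands, moved in several ways. Plxna2 had signals of 8.01 with DMSO, 8.42 with Y-27632, 7.64 with control siRNA and 7.79 with Mkl1 siRNA. It was highest with Y-27632, by 0.41 over DMSO, and its 4 probe sets gave 0.28 to 0.41; with Mkl1 siRNA they ran from -0.28 to 0.15. Plxna1, at 9.40, 9.27, 8.78 and 8.67 in the same order of arrays, was lower on both siRNA arrays, by -0.61 between the controls, and differed by -0.12 and -0.11 in the treatments. Its second probe set, which reached 5.74 at most, did not show this: it gave -0.02 between the controls and 0.19 and 0.16 in the treatments. Plxna3 differed by 0.14 with Y-27632 and by -0.44 with Mkl1 siRNA, and Plxna4 by -0.06 and -0.20.

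Of the B-type plexins, which can activate RhoA, Plxnb2 had signals of 10.47 with DMSO, 10.24 with Y-27632, 9.90 with control siRNA and 10.40 with Mkl1 siRNA. Control siRNA was the lowest array, so that the difference of 0.50 with Mkl1 siRNA (ratio 1.41) became -0.07 when DMSO served as control. With Y-27632 it was -0.23. Plxnb1 was lower by -0.26 with Y-27632 and -0.20 with Mkl1 siRNA. Plxnb3, a receptor of Sema5a, differed by 0.05 and -0.28. No A-type or B-type plexin reached a 2-fold difference in any of the 3 comparisons.

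Known pairs of ligand and receptor were set side by side, first the ligand and then the receptor. Sema7a and Plxnc1 differed by 1.44 and 0.55 with Y-27632 and by 0.73 and -2.37 between the control arrays. With Mkl1 siRNA Sema7a differed by -1.25, while both Plxnc1 signals behind its 0.35 were under the filter. Sema3e was lower and its receptor Plxnd1 higher in both treatments, at -0.19 and 0.56 with Y-27632 and at -0.43 and 1.30 with Mkl1 siRNA, and between the controls they stood at -0.38 and 0.03. Sema3a and Nrp1 differed by -0.25 and 0.44 with Y-27632, by -0.52 and 0.03 with Mkl1 siRNA and by -0.47 and -0.08 between the controls. Sema4d and Plxnb1 differed by -0.30 and -0.26, by -0.04 and -0.20, and by -0.23 and 0.19 in the same order of comparisons. Sema4d passed the filter only with DMSO, so the filter fixed its direction with Y-27632 and between the controls. Both Sema4d signals behind its -0.04 were under the filter. Sema3c and Nrp2 were both higher between the controls, by 1.08 and 1.14, and differed by -0.16 and 0.23 with Y-27632 and by -0.04 and -0.01 with Mkl1 siRNA. Sema3f, the other ligand of Nrp2, differed by -0.21 between the controls. Over all members, both siRNA arrays lay below both others for 9 of 26 and above both others for 3 of 26, against 24.2% and 21.9% of all measured genes. Plxnc1, among the 9, passed the filter only on the DMSO and Y-27632 arrays, so the filter fixed its place.

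Other genes of the pathway were read from 4 lists, beside 50.4% of all measured genes above DMSO with Y-27632 and 50.1% above control siRNA with Mkl1 siRNA. Of 16 measured cytoskeletal effectors, 6 were above DMSO with Y-27632 (median -0.05) and 3 above control siRNA with Mkl1 siRNA (median -0.20). Dpysl3, of the collapsin response mediator family that binds tubulin and actin, read 7.97 with DMSO, 8.65 with Y-27632, 8.57 with control siRNA and 7.33 with Mkl1 siRNA. Like Sema7a it was highest with Y-27632 and lowest with Mkl1 siRNA, with differences of 0.68 and -1.24, and its second probe set gave 0.54 and -0.99. Control siRNA was itself above DMSO by 0.60, so that Y-27632 was above control siRNA by 0.08 and Mkl1 siRNA below DMSO by -0.64. Mical1, an enzyme that oxidises actin downstream of plexin-A, differed by -0.30 and -0.70, Mical2 by -0.32 and -0.61, and Mical3 by 0.60 and 0.46. The second Mical2 probe set above the filter gave 0.13 and -0.40. For Mical3, control siRNA was itself above DMSO by 0.43, and Y-27632 was above control siRNA by 0.17. The other genes of this list were short of 1.5-fold in both treatments on the probe set read for the gene.

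Of 13 measured other receptors and coreceptors, 2 were above DMSO with Y-27632 (median -0.22) and 7 above control siRNA with Mkl1 siRNA (median 0.06). Mst1r passed the filter only with Y-27632, so the filter fixed its place above DMSO. Kdr and Ptk7 passed it only with DMSO and Mkl1 siRNA, so the filter fixed their direction in both treatments. Trem2, a lipid-sensing receptor that also binds Sema6d through plexin-A1, was higher by 1.04 with Y-27632 and 1.06 with Mkl1 siRNA on 1 probe set, with control siRNA itself above DMSO by 0.62 and Y-27632 above control siRNA by 0.42, while its signalling partner Tyrobp stayed under the filter. Met, the HGF receptor that associates with B-type plexins, differed by -0.22 and 0.98, with control siRNA itself below DMSO by -1.19. The integrin subunits Itga1 and Itgav differed by -0.36 and 0.77, and by 0.00 and -0.69, with -1.17 with Mkl1 siRNA on the second Itgav probe set. Itgb1, the beta-1 integrin through which Sema7a signals, was lower by -0.46 and -0.60.

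Of 5 measured growth factors, Hgf and 4 of the VEGF type, 2 were above DMSO with Y-27632 (median -0.04) and 3 above control siRNA with Mkl1 siRNA (median 0.17). Hgf, the ligand of Met, was higher by 1.61 with Y-27632, but control siRNA was also above DMSO, by 1.52; with Mkl1 siRNA it differed by 0.24. Its 3 probe sets above the filter gave 1.61 to 1.96 with Y-27632, 0.24 to 1.31 with Mkl1 siRNA and 0.87 to 1.52 between the controls, so that at least 1 of them passed 2-fold in the knockdown. Vegfd, a lymphatic growth factor, differed by -0.04 and 0.44 and by 1.07 between the controls. Vegfa, which binds Nrp1, differed by 0.56 and 0.17, with its second probe set at -0.11 and -0.17, and Vegfb by -0.10 and -0.33. Of 7 measured proteases that cut semaphorins or their receptors, 6 were above DMSO with Y-27632 (median 0.18) and 4 above control siRNA with Mkl1 siRNA (median 0.05), with none past 2-fold. Pcsk6, a convertase of the furin type, differed by 0.18 and 0.73, Adamts1 by 0.61 and -0.10, Furin by 0.11 and 0.33, and Adam17 by 0.26 and -0.07.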

How the data were processed

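Total RNA of 4 mouse DFAT cell samples was hybridised to 1 single-colour Affymetrix array each, with groups taken from the sample titles. Each deposited value is the log2 signal of 1 probe set, made with RMA per the submitters' processing notes; the RMA version is not given in the sources used here. Values between 2.02 and 14.6 showed the scale to be log2. RMA equalises the distributions of arrays and compresses differences near background. Of 45101 probe sets, 34958 had 1 symbol in the platform annotation, 932 had several and 9211 had none. Gene values came from the first kind, leaving out 64 control probe sets, with symbols updated through a RefSeq gene table of GRCm38.p6 (34754 found). The 78 probe sets of the 31 members all had 1 symbol. Differences were taken between arrays, and genes counted from 2-fold. Every measured member was named, with up to 4 genes of each pathway list furthest from 0; 1 further pathway list is not reported here. The members and lists were chosen with earlier results of these data known. Calculations used Python 3.11.15, pandas 2.3.3 and statsmodels 0.14.6 and were tested on simulated data. Alternatives were other probe set rules, filters, centrings, a 1.5-fold threshold and the other control array.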

Additional observations from a re-analysis of the deposited data

How the results depend on the processing

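A count was taken as moved beyond 1.5 times its value, and a median or a gene's difference beyond 0.25. No member's difference of at least 1.5-fold turned its sign under any alternative run, but smaller ones did. With the other control array, 24 treatment differences of the members moved and 28 did not. Plxnc1 with Mkl1 siRNA went from 0.35 to -2.02 there, and Nrp2 with Y-27632 from 0.23 to -0.91. With the other control array, Y-27632 had 1 ligand (Sema5a) and 1 receptor (Plxnc1) at least 2-fold higher and 1 ligand (Sema3c) lower, and Mkl1 siRNA had 2 ligands (Sema3c, Sema6d) and 2 receptors (Nrp2, Plxnd1) higher and 1 ligand (Sema5a in place of Sema7a) and 1 receptor (Plxnc1) lower, beside 2.03% and 0.75% and 2.73% and 3.23% of all genes. With the mean of all probe sets, 18 members were measured, and Sema6d and Plxnc1 left the counts because they fell under the filter. With Y-27632, 1 ligand stayed at least 2-fold higher, Sema7a at 1.11 (1.04% of all genes). Between the controls 0 ligands and 0 receptors were at least 2-fold higher and 0 of each lower (0.781% and 0.97% of all genes). Nrp2 stood at 0.73 there, Sema5a at -0.96 and Plxna1 at -0.32. Counting from 1.5-fold gave 3 ligands higher and 2 receptors lower between the controls (3.42% and 4.09%), and subtracting a loess curve gave 2 ligands higher there (0.983%). With the filter at the 75th percentile (8.08, 13 members) the Mkl1 siRNA median was -0.43 for 7 ligands and 0.09 for 6 receptors. With Y-27632 the medians were -0.16 and 0.32. The control median of 6 receptors was -0.22, and 0 receptors were at least 2-fold lower between the controls, since Plxnc1 was left out (1.12% of all genes). No filter, the median subtracted and leaving out probe sets ending in _s_at, _x_at or _a_at moved none of these counts and medians. Leaving out an array or a paired fit could not be run. No paired analysis was possible because each group has 1 array. Depth is not defined for arrays, and signals near background limit Plxnc1.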

Other observations

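Genes related by name or structure lay outside the rule for the members and were looked at after the values were seen. Plxdc2, a membrane protein with a plexin-like domain, read 6.25 with DMSO, 6.76 with Y-27632, 7.07 with control siRNA and 6.69 with Mkl1 siRNA, so DMSO was again the lowest array. The other Plxdc2 probe sets, all under the filter, also had DMSO lowest. They differed by 0.43 and 0.49 with Mkl1 siRNA, where the first differed by -0.38. Plxdc1 was lower on both siRNA arrays, at 5.88, 6.16, 4.97 and 5.06 in the same order, with both siRNA signals under the filter. Its other probe set, which never reached the filter, was higher on both siRNA arrays, at 5.27, 5.23, 5.55 and 5.52. Dcbld2, a neuropilin-like protein, differed by -0.31 with Y-27632 and by -0.70 with Mkl1 siRNA on the brightest of its 3 probe sets, and the others gave -0.37 and -0.50 with Y-27632 and -0.37 and -0.97 with Mkl1 siRNA. The antisense transcript Plxna4os1 stayed under the filter, with a highest signal of 5.16.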
